A study of Rattus norvegicus with 64 samples.

Results

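Fibroblasts of the meninges express a set of genes that also appears in RNA from layer II (LII) of the rat entorhinal cortex, the neuronal layer closest to the brain surface. Of these genes, 10 were followed here through every sample, namely Dcn, Lum, Ogn, Tgfbi, Igfbp2, Slc6a13, Aldh1a2, Foxc1, Zic1, and Zic4, out of 17260 genes in the count tables. They were chosen by name as genes of meningeal fibroblasts, after an earlier analysis of these same samples had shown most markers of these cells higher in LII than in the deeper layers of the medial entorhinal cortex (MEC), although Dcn itself was lower there. The layer difference in the MEC is therefore a description here and carries no test. The layer difference in the lateral entorhinal cortex (LEC) was not part of that choice, but earlier results of all samples were known. Total RNA depleted of ribosomal RNA was sequenced from Long Evans rats without any treatment or transgene, at postnatal day 2, 9, 23, or 45 (P2, P9, P23, and P45). Within each region, LII and the pooled layers III to VI (LDeep) were dissected by hand from unstained slices, and the replicates per group numbered 5, 4, 3, and 4 at the successive ages, giving 16 groups and 64 samples. The cut between layers was made by eye and the tissue was not sorted, and the labels do not say that replicates came from separate animals, so the p-values measure the spread between these samples. In such bulk tissue, fewer cells of a type and less RNA per cell cannot be told apart.

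The meninges wrap the brain in layers, of which the pia lies directly on cortical layer I and the arachnoid above it. Their fibroblasts build the collagen and proteoglycan matrix of the pial surface and secrete factors into the cerebrospinal fluid, and retinoic acid made by Aldh1a2 in these cells is a known signal to the developing cortex. The transcription factors Foxc1, Zic1, and Zic4 are made in meninges, and Foxc1 is needed for normal meninges. All of them are also tied to development of the cerebellum. Neurons of the cerebellar granule lineage make Zic1 and Zic4 as well, so these are not specific to meninges.

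The total of counts per library ran from 3894334 to 11439143, with medians of 7703875 in MEC LII, 8377045.5 in MEC LDeep, 5575770 in LEC LII, and 7620385.5 in LEC LDeep. Levels are given in CPM, counts scaled to the library total after its correction by TMM normalization factors, on which a single count was worth 0.0895 to 0.253 CPM, and no replicates were alike within sampling noise. The layer labels were checked against neuronal markers. The summed level of the layer II markers Reln, Calb1, and Wfs1 had a median of 1103 CPM in MEC LII against 390.5 CPM in MEC LDeep, and the 7 deep-layer markers of 237 CPM against 632 CPM. In the LEC the corresponding medians were 1048 and 463.5 CPM for the layer II markers and 335 and 688 CPM for the deep-layer markers. Over all ages the layer II markers overlapped, at 667 to 1769 CPM in LEC LII and 302 to 1400 CPM in LEC LDeep. The 1400 CPM were those of LEC LDeep P45 replicate 4. In the MEC they ran from 702 to 2053 CPM in LII and from 146 to 795 CPM in LDeep. The deep-layer markers overlapped in the LEC (201 to 597 against 504 to 853 CPM) but not in the MEC (175 to 452 against 488 to 1461 CPM).

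The genes studied here went against the layer label in 3 of the 64 libraries, all from the MEC at P2. The library labelled LII replicate 1 held 2 counts of Dcn and 0 of Lum but 4326 of Zic1 and 2422 of Zic4, with 382 CPM of Zic2, against 16.1 to 45.9 CPM in the 13 MEC LII libraries outside this set and the Gabra6 set described next. The cortical neuron gene Tbr1 stood at 1.4 CPM there, against 6.28 CPM or more in those 13, and the border macrophage gene Mrc1 at 0.9 CPM, against 11.6 CPM or more. That library had almost no RNA of these proteoglycans and far more Zic RNA than any other. The library labelled LDeep replicate 1 held 159 counts of Lum, 209 of Slc6a13, and 262 of Aldh1a2, and its summed level of 24 other meningeal fibroblast markers was 1845 CPM, where the remaining LDeep libraries of that age had 242 to 406 CPM. Its layer II neuronal markers summed to 785 CPM, against 267 to 395 CPM in those libraries, and its deep-layer markers to 520.5 CPM, the lowest of the group. The library labelled LII replicate 3 held 9 counts of Lum, 5 of Slc6a13, and 2 of Aldh1a2, although its layer II neuronal markers summed to 1068 CPM, within the range of the other LII libraries. It also held 27.2 CPM of En2 and 11.3 CPM of Lhx9. Neither was confined to it, with 12.9 CPM of Lhx9 in MEC LDeep P2 replicate 3 and 14.0 CPM of En2 in LEC LDeep P45 replicate 2. Results that rest on these libraries are given with and without them. The libraries were picked by the values of these same genes. Values without them are therefore descriptions, and an adjusted p printed for such a fit is not read as a test.

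In 4 further libraries Gabra6, a gene of cerebellar granule cells, exceeded 10 CPM, and no other library passed 2.51 CPM. They were MEC LII P23 replicate 2 (126 CPM), MEC LDeep P45 replicate 2 (32.8 CPM), LEC LII P45 replicate 2 (128 CPM), and LEC LDeep P45 replicate 2 (218 CPM). Zic1 was high in the same libraries. In LEC LDeep P45 replicate 2 it reached 71.0 CPM, where the other 15 LEC LDeep libraries had 0.970 to 4.92 CPM, and Cbln3 (91.3 CPM) and Neurod1 (105 CPM), also of the granule lineage, were raised beside it. The part of this RNA in the Zic1 and Zic4 results was not tested beyond leaving the libraries out.

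**Figure D1:**
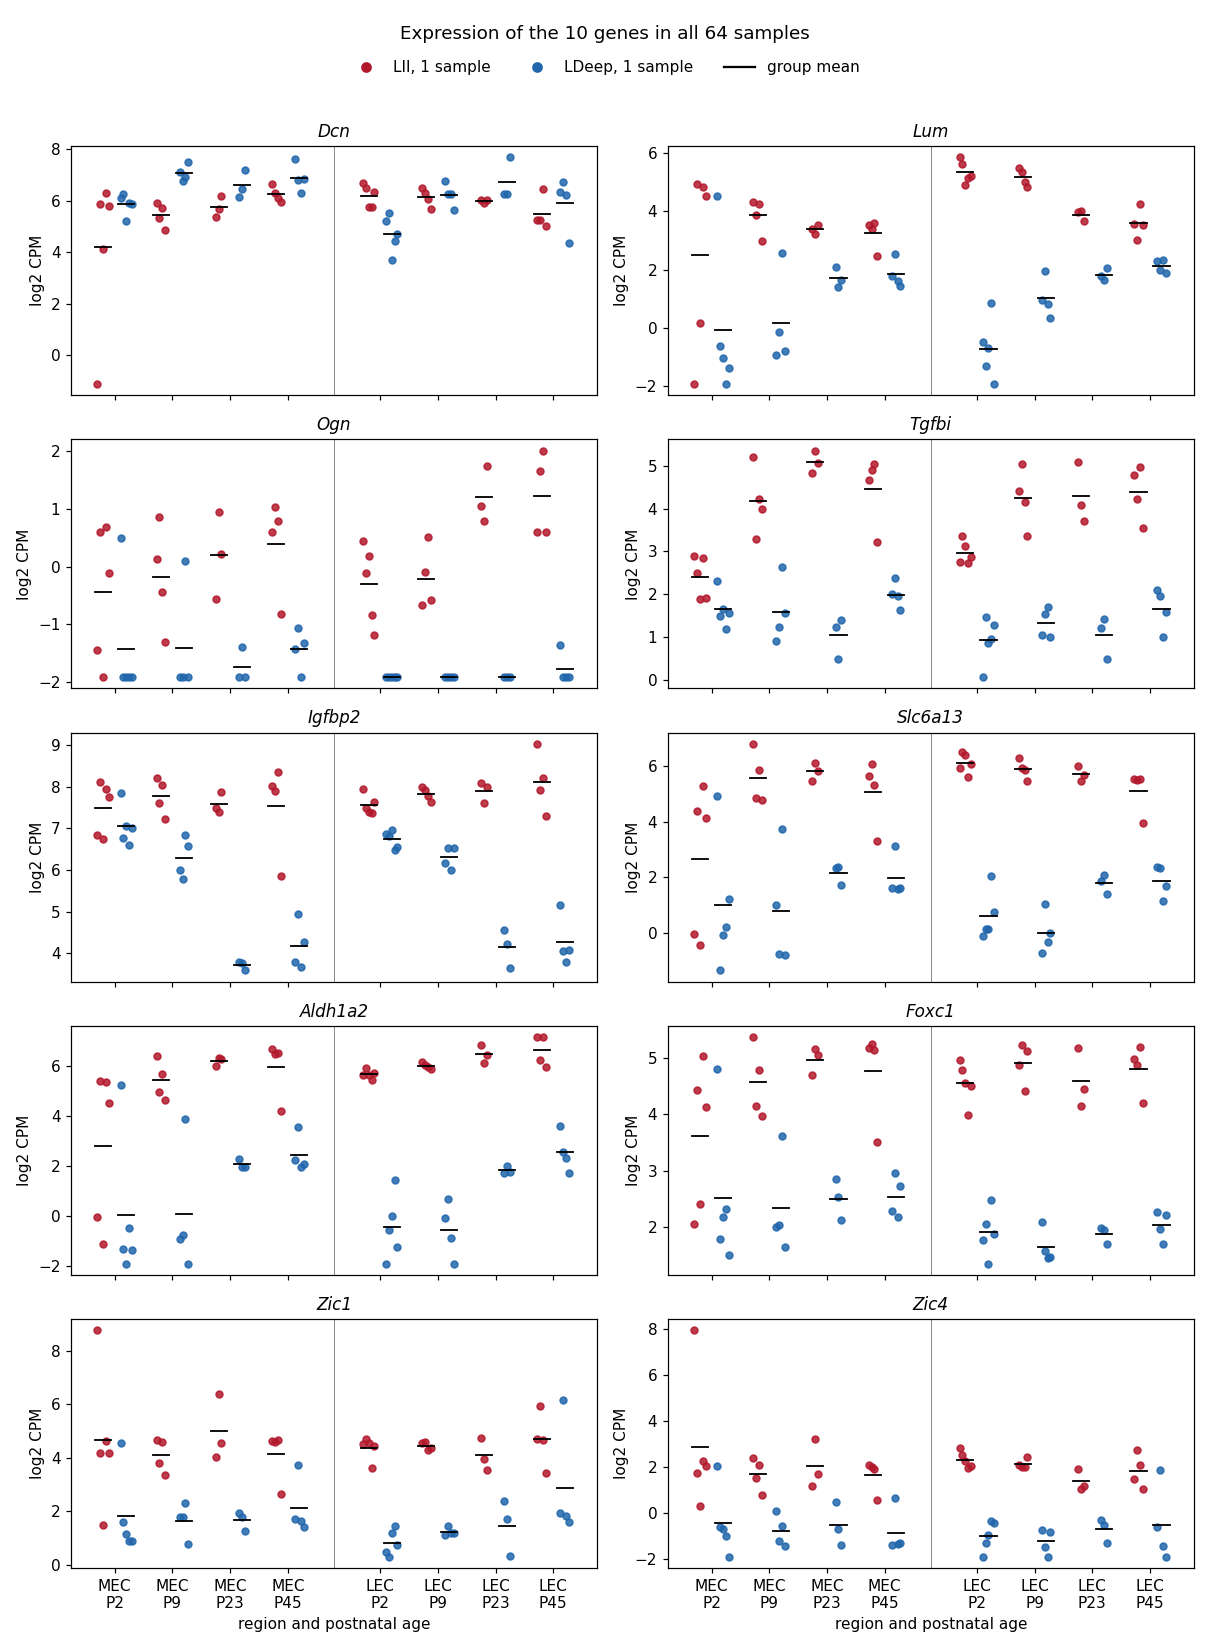
Expression of the 10 genes in each of the 64 samples, as log2 CPM, by region and postnatal age, with LII in red, LDeep in blue, and a black line at each group mean. In the LEC the layers separate for most genes other than Dcn, and at P2 in the MEC 3 libraries lie among the other layer's values in several genes, 1 of them at 8.76 for Zic1.

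Whether LII carried more of these RNAs than LDeep was tested in the LEC. Of the 10 genes, 9 were higher in LII with the ages combined (edgeR quasi-likelihood test, Benjamini-Hochberg (BH) adjusted p below 0.05), where 17.4% of the 12521 genes tested were higher in LII. Ogn, whose LEC LDeep libraries were almost empty, was given no fold and was left out of any order. Among the other genes Aldh1a2 and Slc6a13 had the largest differences, followed by Lum and Zic4, and Dcn did not pass the test. The median log fold-change (LFC, log2, LII minus LDeep) of the genes other than Ogn was 2.97, against -0.06 over all genes tested. With Ogn included it was 3.10. In 25 alternative fits the LFC of the 9 genes stayed above 0 and past the threshold, and that of Dcn lay between -0.15 and 0.11 without passing it. In 7 of the 10 genes every one of the 16 LII samples was above every LDeep sample, which held for 1.69% of all genes. The exceptions were Dcn, Zic1, and Zic4. Ogn separated in CPM alone, since each layer had a library with 1 count.

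The matrix genes differed widely among themselves. Dcn (decorin, a small leucine-rich proteoglycan that binds collagen) ranged from 32.0 to 102 CPM in LEC LII (median 65.9) and from 12.8 to 206.5 CPM in LEC LDeep (median 75.3). The layers overlapped almost completely, and the LFC was -0.04 ± 0.25 (SE, adjusted p = 0.92). Lum (lumican, a related proteoglycan) ranged from 7.85 to 57.4 CPM in LEC LII (median 29.0) and from 0 to 4.73 CPM in LEC LDeep (median 2.28), with an LFC of 3.53 ± 0.46 (adjusted p = 8.469e-09). These neighbours on chromosome 7 (Rn6), Dcn at 38742250 to 38782276 and Lum at 38820058 to 38826862, both on the plus strand with 37781 bases between them, had overlapping layers for Dcn and separate layers for Lum. Tgfbi (an extracellular matrix protein induced by TGF-beta, chromosome 17, 8400123 to 8429338) had 6.39 to 33.8 CPM in LEC LII (median 14.8) and 0.786 to 4.05 CPM in LEC LDeep (median 2.11), an LFC of 2.91 ± 0.22 (adjusted p = 9.738e-16).

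Ogn (osteoglycin, a further proteoglycan of the family) had between 0 and 22 counts per library, so values rather than folds are given. In LEC LII all 16 libraries held at least 1 count (median 6.5), and in LEC LDeep 15 of 16 held none and the last held 1. In CPM the layers did not overlap, with 0.176 CPM or more in LII and 0.1265 CPM or less in LDeep. Both of these limits were 1 count, so in counts the layers met. The layer difference passed the edgeR test (adjusted p = 1.71e-08). The annotation places the gene in 2 blocks on chromosome 17, at 14607442 to 14627937 and at 15447716 to 15468449, each of 7 exon intervals and 2650 exon bases with the same interval lengths. Reads shared by 2 near copies can be counted differently, so the level of Ogn is uncertain.

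Among the secreted and metabolic genes, Igfbp2 (an insulin-like growth factor binding protein, chromosome 9, 80118029 to 80144801) was the most abundant of the 10 per kilobase of exon. Its median was 180 CPM per kilobase in LEC LII, where Dcn had 40.8, Aldh1a2 28.5, Slc6a13 26.8, Zic1 17.1, and Lum 16.8. Foxc1 (7.04), Tgfbi (5.50), Zic4 (1.91), and Ogn (0.213) followed, and the ranges of Dcn, Aldh1a2, Slc6a13, Zic1, and Lum over the 16 samples overlapped one another. Igfbp2 was higher in LII with an LFC of 2.50 ± 0.18 (adjusted p = 7.692e-16), from 157 to 523 CPM in LII against 12.3 to 125 CPM in LDeep. Slc6a13 (the GABA and taurine transporter GAT2, chromosome 4, 153876149 to 153911966) had 15.1 to 91.7 CPM in LII (median 54.4) and 0.339 to 4.94 CPM in LDeep (median 1.86), an LFC of 4.73 ± 0.48, or 26.5-fold (adjusted p = 1.199e-11). Aldh1a2 (the retinaldehyde dehydrogenase that makes retinoic acid, chromosome 8, 77640234 to 77719488) had 42.4 to 141 CPM in LII (median 63.97) and 0 to 11.9 CPM in LDeep (median 1.88), an LFC of 5.36 ± 0.56, or 41.0-fold (adjusted p = 2.32e-11). Apart from Ogn, no gene of the 10 had a larger LFC than Aldh1a2 and Slc6a13.

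Among the transcription factors, Foxc1 (a forkhead factor with a single exon, chromosome 17, 33947501 to 33951484, minus strand) had the narrowest range in LEC LII, as highest over lowest sample. It ran from 15.6 to 37.4 CPM in LEC LII and from 2.28 to 5.28 CPM in LEC LDeep, with an LFC of 2.97 ± 0.27 (adjusted p = 8.478e-13). Zic1 and Zic4 (zinc finger factors) lie on chromosome 8 in opposite directions with 16906 bases between them, at 98734759 to 98738197 and 98755104 to 98760737. Zic1 had an LFC of 2.54 ± 0.50 (adjusted p = 4.577e-05) and Zic4 of 3.24 ± 0.67 (adjusted p = 8.076e-05). For both, the only LDeep library that overlapped LII was P45 replicate 2, the LEC LDeep library with 218 CPM of Gabra6.

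At single ages the number of genes higher in LEC LII was 9 each at P2 and P9 and 6 each at P23 and P45, where 7.02%, 10.3%, 6.77%, and 7.95% of all genes were higher. Igfbp2 missed the threshold at P2, Dcn was higher at P2 alone, and Dcn, Lum, Zic1, and Zic4 missed it at P23 and P45. Without the 3 MEC libraries of P2, which share the estimate of the spread, the counts were 10, 9, 9, and 8, and without the 4 Gabra6 libraries as well they were 10, 9, 9, and 9. At P23, leaving out replicate 3 gave 3 genes, and calls over all genes in either direction went from 1409 to 439 of 12646. The shares of all genes higher in LII are not given for these refits. The change in count is therefore not read as a result about the 10 genes. Groups without overlap were found for 10 genes at P2 (6.89% of all genes), 9 at P9 (12.6%), 9 at P23 (18.4%), and 7 at P45 (8.39%). Those that overlapped were Dcn from P9 on and, at P45, Zic1 and Zic4.

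**Figure D2:**
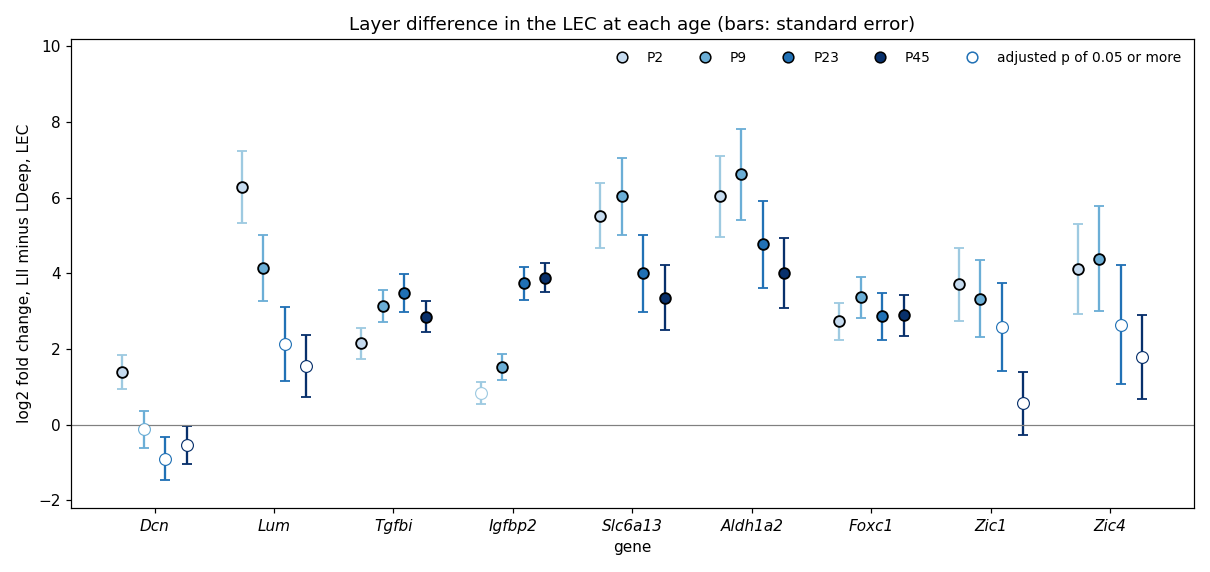
Layer difference in the LEC at each age for 9 of the 10 genes, as LFC of LII minus LDeep with its standard error, from P2 (pale) to P45 (dark), open where the adjusted p was 0.05 or more. Lum goes from 6.29 at P2 to 1.55 at P45 and Igfbp2 from 0.84 to 3.89, and Dcn is above 0 at P2 alone.

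The layer difference was largest at P2 for Lum and at P45 for Igfbp2, and whether it differed between ages was not tested. In LEC LII, Lum had 57.4, 48.5, 29.7, 35.1, and 37.1 CPM in the replicates of P2 and 11.6, 7.85, 18.6, and 11.2 CPM at P45. In LEC LDeep it had 0.449, 0.139, 0.360, 1.55, and 0 CPM at P2 and 4.68, 3.74, 4.73, and 3.44 CPM at P45. The layers of Lum thus drew together from both sides without overlapping, and its layer LFC was 6.29 ± 0.95 at P2 (adjusted p = 4.15e-06), 4.14 ± 0.87 at P9, 2.14 ± 0.97 at P23 (adjusted p = 0.16), and 1.55 ± 0.82 at P45 (adjusted p = 0.23). Without the 3 MEC libraries the values at P23 and P45 were 2.14 and 1.58, and the adjusted p was 0.00107 and 0.00406. No LEC sample changed in that fit. The libraries left out were picked for outlying values of Lum, among other genes, which narrows the shared spread. These p-values are therefore not read as tests.

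Igfbp2 did not pass the test of age in LEC LII and was lower in the older samples of LEC LDeep. Its LEC LII samples had 248, 179, 168, 167, and 199 CPM at P2 and 523, 244, 295, and 157 CPM at P45. Its LEC LDeep samples had 117, 113, 125, 88.6, and 93.6 CPM at P2, then 71.4, 92.5, 63.4, and 93.1 CPM at P9, then 23.4, 18.4, and 12.3 CPM at P23. Every P23 and P45 sample of LDeep was below every P2 and P9 sample. The layer LFC of Igfbp2 was 0.84 ± 0.30 at P2 (adjusted p = 0.0586), 1.52 ± 0.34 at P9 (adjusted p = 0.000975), 3.74 ± 0.44 at P23 (adjusted p = 6.3e-08), and 3.89 ± 0.38 at P45 (adjusted p = 5.49e-10).

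The level in LDeep can be read as a share of that in LII. In the LEC at P2 the LDeep mean was 1.48% of the LII mean for Aldh1a2, 2.16% for Slc6a13, and 1.2% for Lum. At P45 the same shares were 6.03%, 9.59%, and 33.7%, and Foxc1 went from 15.1% to 13.5%. The share was thus higher at P45 for Lum, Slc6a13, and Aldh1a2 and close to its P2 value for Foxc1. For Igfbp2 the share was 55.9% at P2 and 6.72% at P45, and for Dcn 37.9% and 144%.

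**Figure D3:**
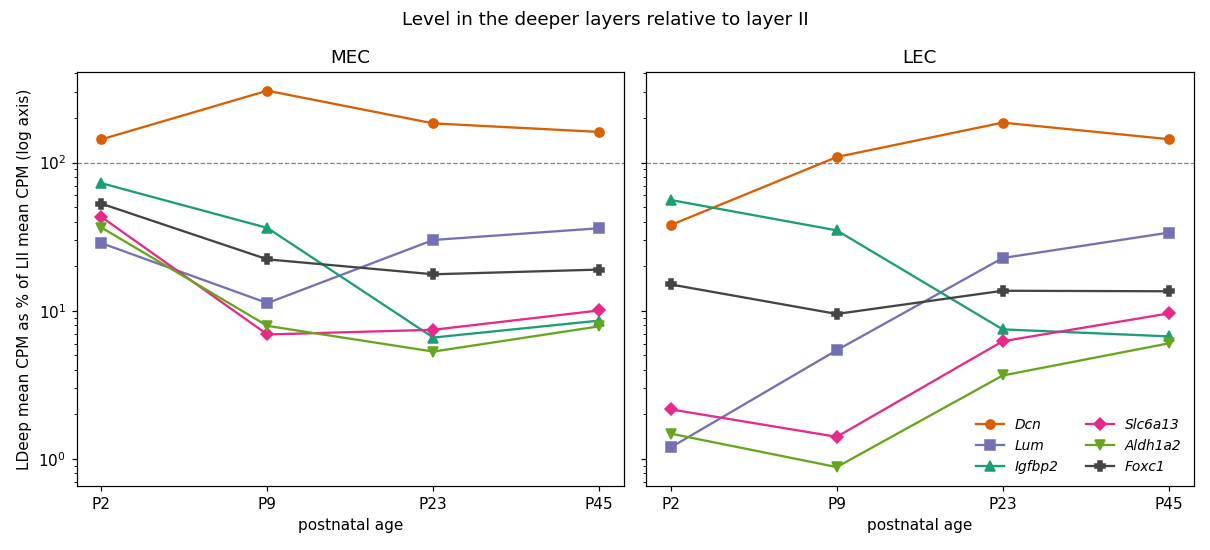
Mean CPM in LDeep as a percent of the mean in LII, on a log axis, at each age in the MEC and the LEC for 6 genes, with a dashed line where the layers are equal. In the LEC the line of Lum runs from 1.2% to 33.7% and that of Igfbp2 from 55.9% to 6.72%, and the P2 values of the MEC include the 3 libraries against their label.

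Dcn was the exception at P2. Its LEC LII samples of that age had 102, 90.4, 54.2, 54.1, and 80.1 CPM and its LEC LDeep samples 37.1, 46.6, 12.8, 21.8, and 26.1 CPM. The groups did not overlap, and the LFC was 1.4 ± 0.45 (adjusted p = 0.0322). At P45 the samples had 38.4, 37.8, 87.4, and 32.0 CPM in LII and 81.1, 105, 74.4, and 20.4 CPM in LDeep, which overlapped (LFC -0.54 ± 0.50, adjusted p = 0.55).

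The LEC layer difference of Zic1 at P45 changed with the Gabra6 libraries. Zic1 had 26.0, 60.5, 25.4, and 10.7 CPM in LEC LII and 3.54, 71.0, 3.28, and 2.75 CPM in LEC LDeep, and replicate 2 was the highest in both layers. The LFC was 0.56 ± 0.84 with replicate 2 (adjusted p = 0.74) and 2.66 with both sets of libraries left out (adjusted p = 1.21e-05). For Zic4 at P45 the corresponding values were 1.79 ± 1.11 (adjusted p = 0.32) and 3.82 (adjusted p = 0.000107). The p-values without both sets rest on a spread narrowed by leaving out libraries picked by values of these genes. They are therefore not read as tests.

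**Figure D4:**
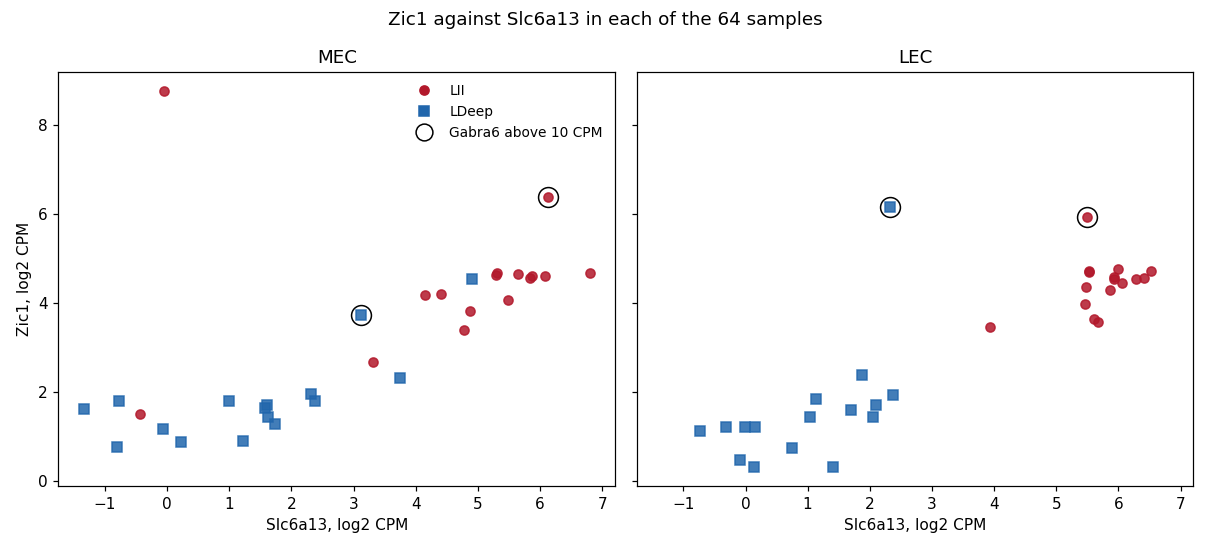
Zic1 against Slc6a13 in each of the 64 samples, both in log2 CPM, with LII as red circles, LDeep as blue squares, and a ring around the 4 libraries with more than 10 CPM of Gabra6. Apart from the ringed libraries, the MEC LII library with 433 CPM of Zic1 and 0.7 CPM of Slc6a13 lies away from the rest.

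In the MEC, this difference was known when the genes were chosen by name. The median LFC of the 10 genes between layers, Ogn included, was 2.58 there, and 3.06 without the 3 libraries of P2. Zic4 had an LFC of 3.69 ± 0.59 and Aldh1a2 of 3.21 ± 0.47, and without the 3 libraries these were 3.24 ± 0.37 and 4.81 ± 0.36, so their order turned. Dcn had -0.93 ± 0.25, that is, a lower level in LII than in LDeep. With each replicate number left out in turn, the median stayed between 2.46 and 2.97. Genes without overlap of the layers numbered 0 at P2 (0.815% of all genes), 8 at P9 (10.6%), 9 at P23 (20.8%), and 6 at P45 (12.5%), and 0 over all ages (0%). The counts at P2 and over all ages include the 3 libraries. Without them, every gene but Dcn was higher in each LII library of P2 than in each LDeep library. The 3 libraries were picked because values of these genes crossed the layers. This separation and the larger median without them were thus largely fixed by the choice and are no further result. For Tgfbi the gap was narrow, with 3.49 CPM or more against 2.89 CPM or less. The share of all genes without the 3 libraries was not computed.

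At P2 in the MEC, single libraries lay among those of the other layer. Aldh1a2 had 0.7, 41.1, 0.190, 40.4, and 22.2 CPM in LII replicates 1 to 5, and 37.4, 0.128, 0, 0.451, and 0.122 CPM in LDeep. Slc6a13 had 0.7, 20.8, 0.474, 38.7, and 17.6 CPM in LII and 29.8, 0.128, 0.693, 0.902, and 2.07 CPM in LDeep. Replicates 1 and 3 of LII lay within the range of LDeep, and replicate 1 of LDeep lay within that of the remaining LII samples. The same libraries stood apart in Foxc1, with 3.9, 21.4, 5.02, 32.6, and 17.3 CPM in LII and 27.5, 3.19, 4.27, 4.74, and 2.56 CPM in LDeep. An intermediate library was MEC LDeep P9 replicate 3, with 14.5 CPM of Aldh1a2, where the other libraries of its group had 0.320 CPM or less. MEC LII P45 replicate 4 was low, with 17.8 CPM of Aldh1a2 against 87.1 to 100.4 CPM in its group, and it held 42.0 CPM of the choroid plexus gene Ttr.

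The spread between replicates was wide for these genes. The within-age SD of log2 CPM had a median over the 10 genes of 1.72 in MEC LII, 1.00 in MEC LDeep, 0.46 in LEC LII, and 0.70 in LEC LDeep. Over all genes tested the median SD was 0.24, 0.27, 0.23, and 0.25 in the same order. Without the 3 MEC libraries of P2, the median over the 10 genes was 0.71 in MEC LII and 0.63 in MEC LDeep, against 0.20 and 0.27 over all genes. Leaving out libraries picked for outlying values of these genes narrows their spread by choice. The SD of Dcn in MEC LII was 1.81 with these libraries and 0.37 without them. The widest spread was that of Aldh1a2 in MEC LDeep (SD 2.17), which was 1.44 without them.

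Younger samples (P2/P9) were set against older ones (P23/P45) within each region and layer. Of the 10 genes 3 changed in MEC LII, where 66.5% of all genes did, and 3 in LEC LII, where 62.7% did. Tgfbi was lower in the younger samples of both regions, by an LFC of -1.49 ± 0.26 in MEC LII (adjusted p = 1.4e-06) and -0.79 ± 0.26 in LEC LII (adjusted p = 0.00756). In MEC LII Tgfbi had 7.2, 5.34, 3.41, 6.91, and 3.49 CPM at P2, 36.5, 9.58, 18.5, and 15.7 CPM at P9, 28.5, 40.4, and 33.4 CPM at P23, and 25.0, 29.3, 32.4, and 9.07 CPM at P45. In LEC LII it had 6.46, 10.02, 8.51, 6.39, and 7.04 CPM at P2, 20.8, 32.5, 17.7, and 9.93 CPM at P9, 33.8, 16.7, and 12.95 CPM at P23, and 27.3, 18.4, 31.4, and 11.4 CPM at P45. In both regions the P2 samples lay below all P23 and P45 samples, whereas the P9 samples overlapped the older ones.

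Further genes passed in 1 of the regions. In LEC LII Lum was higher in the younger samples (LFC 1.53 ± 0.55, adjusted p = 0.0134) and Ogn lower (adjusted p = 0.0069). In MEC LII Aldh1a2 was lower in the younger samples (LFC -1.25 ± 0.57, adjusted p = 0.0483), a call lost without the Gabra6 libraries (-1.18, adjusted p = 0.0898) or without both sets (-0.81, adjusted p = 0.0612), and Zic4 was higher (LFC 1.76 ± 0.67, adjusted p = 0.0183). The call on Zic4 rested on the MEC LII library with 2422 counts of it, since without the 3 MEC libraries the LFC was -0.12 (adjusted p = 0.81). Without those libraries the LFC of Lum in MEC LII was 1.02, and 0.64 ± 0.55 with them. The LII libraries left out were picked for low Lum, among other genes, so this fit gives no test. Whether the change with age differed between MEC LII and LEC LII was tested with a contrast added after the data were seen, and none of the 10 genes passed (2.16% of all genes did), with no unadjusted p below 0.05 (12.9% of all genes). This was run with edgeR alone.

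In MEC LDeep 1 gene changed with age (66.2% of all genes did), and 5 changed in LEC LDeep (64.5% did). Igfbp2 was higher in the younger samples of both, with an LFC of 2.78 ± 0.28 in MEC LDeep (adjusted p = 7.56e-13) and 2.27 ± 0.27 in LEC LDeep (adjusted p = 1.96e-10). In MEC LDeep it had 231, 109, 133.5, 96.5, and 128.5 CPM at P2 and 13.6, 30.8, 12.4, and 18.9 CPM at P45, which did not overlap. In LEC LDeep the genes lower in the younger samples were Aldh1a2 (LFC -2.70 ± 0.99, adjusted p = 0.0149), Zic1 (-2.07 ± 0.82, adjusted p = 0.0238), Lum (-1.84 ± 0.75, adjusted p = 0.028), and Dcn (-0.95 ± 0.35, adjusted p = 0.0152). Without the Gabra6 libraries Zic1 (-0.72, adjusted p = 0.41) and Dcn (-0.80, adjusted p = 0.0566) missed the threshold. For Aldh1a2 in LEC LDeep the P2 samples had 0, 0.416, 0.720, 2.45, and 0.156 CPM and the P45 samples 11.9, 5.61, 4.73, and 2.98 CPM, all of them higher.

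In MEC LDeep the age difference of Aldh1a2 turned with the 3 libraries. With all samples the LFC between younger and older MEC LDeep was 0.22 ± 0.72 (adjusted p = 0.80). Without the 3 libraries it was -2.59, with Lum at -2.37. The LDeep library left out was picked for its high Lum and Aldh1a2, among other genes. Leaving it out lowers the younger group by choice, so this fit gives no test. With the replicate number as a random block, 5 genes passed in MEC LII, 3 in LEC LII, 2 in MEC LDeep, and 2 in LEC LDeep.

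**Figure D5:**
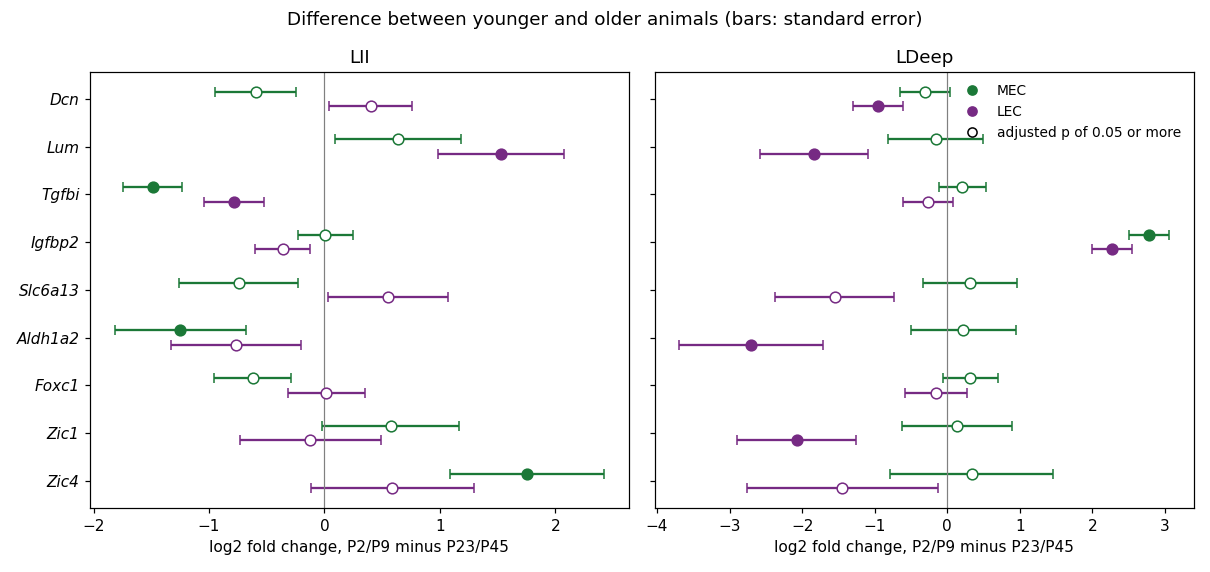
LFC of younger (P2/P9) minus older (P23/P45) samples with its standard error, in LII and in LDeep, for 9 of the 10 genes in the MEC (green) and the LEC (purple), open where the adjusted p was 0.05 or more. Tgfbi lies below 0 in LII of both regions and Igfbp2 at 2.27 or above in LDeep of both.

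Between the regions, none of the 10 genes passed the threshold in LII, where 12.6% of all genes differed, or in LDeep, where 5.78% did (edgeR). The MEC samples of both layers entered the choice of the genes, so neither comparison is independent of it. An unadjusted p below 0.05 was found in LII for 1 gene (25.1% of all genes), namely Lum (LEC minus MEC, LFC 0.87 ± 0.38, adjusted p = 0.14), and in LDeep for 5 (16.8% of all genes), namely Dcn, Ogn, Slc6a13, Aldh1a2, and Foxc1. Without the 3 MEC libraries, the LDeep LFC of Aldh1a2 went from -1.51 to -0.11 (adjusted p = 0.98), that of Slc6a13 from -1.23 to -0.54 (adjusted p = 0.57), and that of Foxc1 from -0.86 to -0.56 (adjusted p = 0.0891), and Ogn had an adjusted p of 1. Foxc1 came closest in LDeep (LFC -0.86 ± 0.28, adjusted p = 0.0591) and was the 1 gene called there by DESeq2, which called none in LII. In limma voom 3 genes passed in LII and none in LDeep. The shares of all genes called by DESeq2 and limma voom are not given, so these counts are not read as a result about the 10 genes. Without the 3 MEC libraries the LFC (LEC minus MEC) was 0.69 for Lum in LII and -0.60 for Dcn in LDeep. As these libraries were picked by values of the same genes, no call is made from that fit. The medians of Lum were 29.0 CPM in LEC LII and 11.4 CPM in MEC LII, and those of Dcn were 75.3 CPM in LEC LDeep and 98.7 CPM in MEC LDeep.

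Whether LII samples with more Dcn also had more of the other genes was asked within each age, over 16 samples per region. Of 18 relations, 4 passed by Pearson's r and 8 by Spearman's rho (permutation test within age, BH adjusted). In the MEC those that passed by both were Lum (r = 0.908, rho = 0.835, adjusted p = 0.00216 and 0.00594), Foxc1 (r = 0.745, rho = 0.824, adjusted p = 0.00072 and 0.00144), and Igfbp2 (r = 0.47, rho = 0.615, adjusted p = 0.0284 and 0.0236). In the LEC it was Lum (r = 0.85, rho = 0.782, adjusted p = 0.0125 and 0.014). By rho alone passed MEC Slc6a13 (r = 0.727, rho = 0.809, adjusted p = 0.0585 and 0.00666), MEC Aldh1a2 (r = 0.702, rho = 0.788, adjusted p = 0.11 and 0.00618), LEC Igfbp2 (r = 0.39, rho = 0.621, adjusted p = 0.502 and 0.0308), and LEC Aldh1a2 (r = 0.594, rho = 0.662, adjusted p = 0.0585 and 0.0102). Leaving out the 2 samples farthest from the median of Dcn gave r of 0.816, 0.633, and 0.504 for the MEC relations, and of 0.72 for Lum of the LEC. For Zic1 and Zic4 the MEC relation turned from r = -0.59 and -0.749 to 0.767 and 0.73 without replicate 1 of P2, and 11 of the 18 relations then passed by r. Samples with the same replicate number in MEC LII and LEC LII were compared likewise, and none of the 10 genes passed by either coefficient (adjusted p of 0.77 or more, unadjusted p of 0.18 or more).

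Markers of other cells of the brain surface were followed as whole lists, in the LEC layer comparison. Of 24 other meningeal fibroblast markers tested, 22 were higher in LII and none lower, with a median LFC of 3.91. Examples were Ptgds (prostaglandin D synthase, LFC 6.87 ± 0.88) and Col3a1 (a fibrillar collagen, 4.64 ± 0.57), and Cdh11 (-0.22 ± 0.10) and Nnmt missed the threshold. The summed level of that list was 1512 to 7367 CPM in LEC LII and 171 to 600 CPM in LEC LDeep, without overlap.

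Arachnoid markers were higher in LII for 7 of 10 (median LFC of the list 3.73) and border macrophage markers for 5 of 5 (median 2.885). Neither list had a gene that was lower. Cdh1 (E-cadherin, LFC 5.6 ± 0.55) and Slc47a1 (an organic cation exporter, 5.52 ± 0.52) stood for the former, and Mrc1 (the mannose receptor, 2.91 ± 0.33) and Cd163 (a scavenger receptor, 3.96 ± 0.49) for the latter. Macrophage markers summed to 49.2 to 110 CPM in LEC LII and 2.77 to 18.8 CPM in LEC LDeep. Upk1b, a defining arachnoid marker, was at 0 in 14 of 16 LEC LDeep libraries and in none of LEC LII.

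Vessel and glial markers were higher in LII too, with smaller differences. Endothelial markers rose in 9 of 9 tested (median LFC 0.98, with Cldn5, a tight junction protein, at 0.98 ± 0.11 and Flt1 at 0.55 ± 0.10), mural markers in 8 of 10 (Pdgfrb 0.95 ± 0.11, Cspg4 not called at -0.15 ± 0.15), and astrocyte markers in 5 of 8 (Slc1a3, a glutamate transporter, 0.42 ± 0.11). Endothelial markers summed to 360.5 to 590.0 CPM in LEC LII against 152 to 348 CPM in LEC LDeep, mural markers to 234 to 632 against 146 to 310 CPM, and astrocyte markers to 1157 to 7283 against 824 to 4941 CPM, the last 2 with overlap. Choroid plexus markers were higher in 3 of 7 tested (Kcnj13 5.88 ± 0.62 and Aqp1 2.98 ± 0.33, with Ttr not called at 0.96 ± 0.62) and summed to 9.81 to 40.5 against 1.13 to 6.36 CPM, and Otx2, which defines that epithelium, was at 0 in all 32 LEC libraries. Their part in the levels of the 10 genes was not tested.

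Neuronal lists were mixed. Of the layer II markers, 2 of 3 were higher in LEC LII (Reln 1.39 ± 0.19, Calb1 0.47 ± 0.14, with Wfs1 not called at 0.17 ± 0.16), and 5 of 7 deep-layer markers were lower (Tle4 -1.56 ± 0.12, Etv1 -1.25 ± 0.15). Cajal-Retzius markers, of the cells in layer I, had 1 gene higher and 1 lower of 6 (Calb2, which other neurons also make, -1.17 ± 0.21), cerebellar granule markers 2 higher and 1 lower of 8 (Zic2 2.27 ± 0.34, Cbln1 -1.23 ± 0.26), and thalamic and habenular markers 2 higher of 5 (Slc17a6 0.63 ± 0.16).

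The relatives of the 10 genes were read from fixed families. Among small leucine-rich proteoglycans other than Dcn, Lum, and Ogn, 3 of 6 tested were higher in LEC LII, with Fmod at 4.5 ± 0.42, Bgn at 3.22 ± 0.34, and Prelp at 3.09 ± 0.37. Of 17 genes of the retinoic acid pathway besides Aldh1a2, 8 were higher and 1 lower, with Rbp4 (a retinol carrier) at 2.02 ± 0.21 and Cyp26b1 (which degrades retinoic acid) at -0.71 ± 0.31, short of the threshold. Of 10 genes of the insulin-like growth factor system, 5 were higher and none lower, with Igf2 at 4.6 ± 0.55, Igfbp5 at 0.58 ± 0.14, and Igf2r at -0.01 ± 0.12. Of 6 transporters related to Slc6a13, 2 were higher, among them Slc6a12 (the betaine transporter BGT1) at 3.63 ± 0.37. All 6 further Zic and Fox factors tested were higher, with Zic2 at 2.27 ± 0.34, Zic5 at 1.5 ± 0.35, and Foxq1 at 0.53 ± 0.15.

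To see which genes followed the shared pattern, the log2 CPM of each gene was correlated over all 64 samples with the mean of the 10 standardized genes. The samples share layer, age, and library, so the coefficient is a description. Foxc1 (r = 0.975), Slc6a13 (0.956), and Aldh1a2 (0.95) were closest to their own mean, then Ogn (0.905), Tgfbi (0.896), Lum (0.869), Zic1 (0.822), Zic4 (0.757), and Igfbp2 (0.69), and Dcn was far from it (0.082). Of the other genes, the 10 most alike were Colec12 (r = 0.978), Anxa2, Osr1, Msx1, Foxc2, RGD1305645, Igf2, Wnt6, Serpinh1, and Sned1 (r = 0.96). Each of these had a higher mean in LEC LII, with LFCs from 1.74 (Serpinh1) to 5.90 (Foxc2). The samples used to pick them include those of the LEC, so this direction follows largely from the choice and is no further result.

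Sequences before the transcription start were compared for the genes that moved together, to show how their CG content differs. RefSeq (build GRCr8) gave a promoter for 7 of the 10 genes, not for Dcn, Slc6a13, or Zic1. The 100 bases before the start are shown 5′ to 3′ on the gene's strand for Lum (chr7:34245606-34245705, plus), Aldh1a2 (chr8:80758541-80758640, plus), Foxc1 (chr17:32844101-32844200, minus), and Zic4 (chr8:100796002-100796101, plus), with each CG in capitals.
Lum: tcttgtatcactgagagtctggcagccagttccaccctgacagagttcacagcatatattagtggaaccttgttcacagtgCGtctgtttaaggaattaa
Aldh1a2: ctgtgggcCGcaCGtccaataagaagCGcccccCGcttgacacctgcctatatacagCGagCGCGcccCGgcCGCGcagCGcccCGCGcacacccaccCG
Foxc1: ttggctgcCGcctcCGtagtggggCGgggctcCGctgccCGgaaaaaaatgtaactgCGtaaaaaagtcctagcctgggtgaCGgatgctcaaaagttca
Zic4: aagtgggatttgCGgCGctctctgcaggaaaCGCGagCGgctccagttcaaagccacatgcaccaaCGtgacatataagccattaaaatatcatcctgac
Over the 250 bases before the start, the number of CG was 41 for Aldh1a2, 29 for Foxc1, 22 for Tgfbi, 11 for Igfbp2, 8 for Zic4, 5 for Lum, and 3 for Ogn, where the median of 33469 promoters was 5. Of the 7, only Ogn held TATAAA on either strand, found in 12.9% of all promoters, and Tgfbi, Igfbp2, and Foxc1 held GGGCGG on either strand, found in 30.5%. A match is a description and not a binding site.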

How the data were processed

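RNA was measured in 64 samples of rat entorhinal cortex. The deposited values are counts per gene. Per the submitters' notes and the study's methods, Trimmomatic 0.33 removed adapters, STAR 2.4.0 aligned the reads (build Rn6), and featureCounts (Subread 1.4.6-p1) gave each RefSeq gene its strand-matched pairs, so genes with near copies can gain or lose counts. Groups came from the sample labels. The 10 genes and all gene lists were chosen with earlier results of these data known.

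Counts were fitted with edgeR 4.0.16 in R 4.3.3 (TMM, low-count filter, 12521 genes, all 10 studied genes kept, 16 group means), with quasi-likelihood tests and BH adjustment over all genes at 0.05. Each SE was derived from the LFC and its F statistic. Expression is CPM on library totals corrected by the TMM factors, or its log2 with a prior count of 2 for spreads and correlations (100000 permutations within age). Named are the 10 genes, up to 3 genes per list by mean CPM, Igf2, Zic2, and Slc6a12, and the 10 most similar genes. A gene that this rule also names is not reported here. Upk1b, Otx2, Nnmt, En2, Lhx9, Tbr1, Gabra6, and Cbln3 were named after their values were seen. Alternatives were DESeq2, limma voom with quantile normalization, RLE size factors, no filter, fewer samples, a replicate block, and each replicate left out. Leaving out the 3 MEC P2 libraries, the 4 Gabra6 libraries, or both was added after the data were seen. Scripts were tested on simulated counts.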

Additional observations from a re-analysis of the deposited data

Results flagged for a closer look

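Each gene was examined in each group of 4 or 5 samples for a value far from the rest (Dixon's criterion at 95%). Of 120 groups, 19 held such a value, where chance gives about 1 in 20. All values are in log2 CPM, and no cause was tested.

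MEC LDeep P2 replicate 1 was the highest of its group in Lum (4.52), Aldh1a2 (5.23), Foxc1 (4.80), Zic1 (4.54), and Ogn (0.49, from 8 counts). MEC LII P2 replicate 1 was the highest in Zic4 (7.92), where the next sample had 2.25.

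MEC LII P45 replicate 4 was the lowest of its group in Aldh1a2 (4.18), Foxc1 (3.50), Zic1 (2.66), and Zic4 (0.56, from 8 counts). MEC LDeep P45 replicate 2, a Gabra6 library, was the highest in Slc6a13 (3.12), Aldh1a2 (3.53), Zic1 (3.72), and Zic4 (0.63, from 12 counts). LEC LDeep P45 replicate 2, with the most Gabra6, was the highest in Zic1 (6.15), where the next sample had 1.93.

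Single values stood apart in 4 further groups. Slc6a13 was lowest in LEC LII P45 replicate 4 (3.94), and Zic1 in LEC LII P2 replicate 4 (3.64). Ogn was highest in MEC LDeep P9 replicate 3 (0.10, from 8 counts) and in LEC LDeep P45 replicate 1 (-1.35, from 1 count), where the rest of each group had no counts.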

How the results depend on the processing

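Of 3156 recomputed values for single genes, 3006 stayed the same, 76 passed the threshold anew, 59 lost it, 4 descriptive values moved, and 11 reversed. Of the 3006, 236 were MEC layer differences, which carry no test and changed by less than the gene's within-age SD in MEC LII. The rest kept their side of the threshold, 104 of them with a turned sign that was past the threshold in neither fit. All 250 values of the LEC layer difference with the ages combined kept their side of the threshold. Leaving out replicate numbers gave 8 to 10 genes at P2, 6 to 9 at P9, 3 to 9 at P23, and 5 to 8 at P45 in the LEC layer difference. For the age difference the ranges were 1 to 4 in MEC LII, 2 to 3 in LEC LII, 1 to 3 in MEC LDeep, and 3 to 6 in LEC LDeep, and for the region difference 0 to 1 in LII and in LDeep. For the region difference in LDeep, DESeq2 gave 1. With limma voom the counts were 5 for MEC LII and 2 for MEC LDeep by age, 3 for LEC LDeep by age, and 3 for the region difference in LII. With the samples of one region and layer alone, the age counts were 1 in MEC LII and 5 in LEC LII. Without the 3 MEC P2 libraries, 3 genes changed with age in MEC LDeep and 1 differed between regions in each layer. Without the Gabra6 libraries, 3 changed with age in LEC LDeep. Without both sets, 5 changed with age in LEC LII, 3 in MEC LDeep, and 1 differed between regions in each layer, and 7 relations with Dcn passed (11 without P2 replicate 1). Why these counts moved was not tested, and the shares of all genes in the same refits are not given beside them. The 3 MEC P2 libraries were picked by the values of the 10 genes, so the counts without them are no test.

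Reversed were Zic4 by age in MEC LII (-0.12 without the 3 MEC P2 libraries, -0.28 without P2 replicate 1, against 1.76, and -0.28 to 2.23 over single replicate numbers left out), and Aldh1a2 by age in MEC LDeep, at 0.22 with all samples and -2.59 to 0.50 with single replicate numbers left out. That value was -2.8 in limma voom, -2.81 with the random block, -2.59 without the 3 libraries or without P2 replicate 1, and -2.30 without both sets. In the MEC, the correlation with Dcn became 0.767 for Zic1 and 0.730 for Zic4 without P2 replicate 1, and 0.726 and 0.83 without both sets. Over all genes, the LEC layer difference gave 1409 calls at P23 and 439 to 813 without one of its replicates, 1665 calls at P45 and 914 to 2520 likewise (1088 without the Gabra6 libraries), and 1940 calls at P9 and 1089 to 1190 without replicate 1 or 2.

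Replicate numbers were not taken as pairs. The sources tie a number to 1 animal for microarray samples alone. The deviations of same-numbered samples had a mean correlation of 0.121 to 0.133, above 0.1 in 8 or 9 of 16 pairs. For different-numbered samples of the same age it was lower, at -0.048 to -0.037 over 50 pairs. Whether a number marks 1 animal was not tested. With the replicate block the LEC layer difference had 9 genes, 7 at P23 and 6 at P45. With a random block the age difference had 5 in MEC LII, 3 in LEC LII, 2 in MEC LDeep, and 2 in LEC LDeep. The shares of all genes in these fits are not given beside the counts. At the lowest depth 1 count was 0.253 CPM, so differences in Ogn and in Zic4 of LDeep rest on few counts.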
